A study of Saccharomyces cerevisiae with 21 samples.

Results

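The difference that growth density made to the effect of humanizing the yeast U1C protein was measured in 12 of the 21 libraries of the series: wildtype and humanized Saccharomyces cerevisiae, each at low and at high density, with 3 libraries in each of the 4 groups. All 6571 coding sequences were counted, and the 6150 with enough reads were tested. The libraries were taken by their labels. At low density both strains were collected at an OD600 (optical density, a measure of cells per volume) near 0.4, and at high density, past logarithmic growth, wildtype near 5 and humanized cells near 8. The quantity described is an interaction: the log2 difference of humanized against wildtype cells at high density minus the same difference at low density. It is 0 where humanization changed a transcript equally at both densities, positive where humanized cells stood higher relative to wildtype at high density, and negative where they stood lower.

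The 2 densities were separate experiments, the one at high density being the earlier, so density and experiment cannot be told apart. The unequal density of the strains in the earlier experiment cannot be told apart from the genotype either. The labels give rich medium (YPD) or dropout medium for the strains without saying which each had, and do not say whether libraries of a group came from separate cultures, so p-values measure the spread between libraries. The remaining 9 libraries, of a Luc7 triple mutant and a Luc7 degron strain, were used in 1 alternative only.

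U1C is a protein of the U1 small nuclear ribonucleoprotein (U1 snRNP), the particle that binds the 5′ splice site of an intron first. In budding yeast few genes have introns, and genes for ribosomal proteins are common among them. As a culture leaves logarithmic growth, budding yeast shifts from fermenting glucose towards respiration and changes the transcription of ribosomal, stress and nutrient genes. Gcn4, made when amino acids are scarce, activates amino acid synthesis genes, and Hsf1 activates chaperone genes when unfolded protein accumulates.

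The 12 libraries held 29.1 to 46.8 M assigned reads. Wildtype replicate 1 (45.5 M) and humanized replicate 3 (46.8 M) at high density were the deepest, and the median gap between coding length and effective length was also smallest in them (158 and 130 bases, against 212 to 303 in the other 10). Libraries varied more at high density, where the common biological coefficient of variation of the pair of groups was 14.2%, than at low density, where it was 7.83%. Wildtype replicates 2 and 3 at high density stood farthest from their group's means, by the median absolute log2 deviation over sequences (0.112 and 0.0959). Ribosomal protein genes held 15.9 to 18.1% of wildtype and 14.1 to 14.8% of humanized reads at low density. Their share was 14.2 to 16.9% and 11.6 to 12.9% at high density. Of the cell type markers, the a-cell receptor gene STE2 had 451 to 959 CPM and the alpha-cell receptor gene STE3 5.06 to 7.98 over the 12 libraries. MFA1, an a-factor gene with a very short coding sequence, had 0.0766 to 2.42. CPM are reads per M after scaling (TMM) over the 12 libraries, here and in all values below. Where 2 strains are set against each other, wildtype comes first.

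YHC1 (chrXII:724721-725416, minus strand, build R64, that is sacCer3), which encodes U1C, had 39.8, 36 and 34.9 CPM in wildtype and 31.4, 28.5 and 29.6 in humanized cells at low density. Its high-density values were 36, 38.2 and 33.7 in wildtype and 25.4, 28.2 and 30.7 in humanized cells. Every humanized library was below every wildtype library at both densities. In bulk RNA fewer cells with a transcript and less of it per cell cannot be told apart. A humanized coding sequence is counted here only where its reads match the yeast sequence. The 2 differences were −0.31 (adjusted p = 0.112) and −0.36 (0.00548), and the interaction was −0.05 ± 0.12, adjusted p = 0.819 (log2 difference ± SE, edgeR). LUC7, the gene of another U1 snRNP protein, had an interaction of −0.13 ± 0.15, adjusted p = 0.639. None of the 17 U1 snRNP protein genes was called in the interaction, and 6 had positive and 11 negative values, with a median of −0.05.

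Over the 6150 tested sequences 605 (9.84%) had a higher and 493 (8.02%) a lower interaction at an adjusted p below 0.05, and 68 and 64 of them reached 2-fold. Called with each of the 12 libraries left out in turn were 377 (6.13%) and 295 (4.8%). The gene lists with the largest shares of called members were those of amino acid, leucine, purine and phosphate genes on the lower side, and of chaperone, tricarboxylic acid cycle and respiratory genes on the higher side. In the same fit humanized cells differed from wildtype in 17 higher (0.276%) and 49 lower (0.797%) sequences at low density, together 1.07% of those tested. At high density the counts were 1243 (20.2%) and 1095 (17.8%), together 38%. The fit shares the spread of each sequence over all 12 libraries, so low-density p-values also carry the larger spread at high density. The smaller low-density count therefore does not measure how few sequences differed there. High-density p-values in turn carry the smaller spread at low density, so the high-density counts may be too large. The common biological coefficient of variation of the fit was 11.4%, against 14.2% for the high-density groups alone. Groups of 3 libraries without overlap were seen in 932 sequences above and 1013 below wildtype at low density (15.2% and 16.5%), and in 1516 and 1283 at high density (24.7% and 20.9%).

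**Figure D1:**
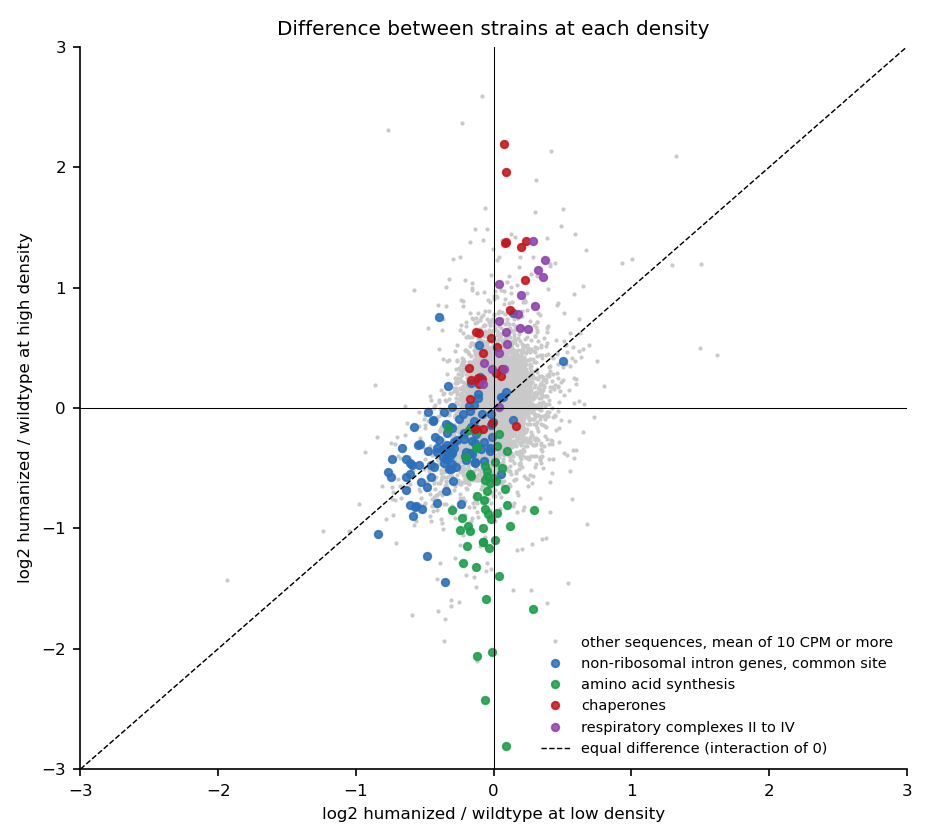
Log2 difference of humanized against wildtype cells at low density (horizontal) and high density (vertical), 1 point per sequence with a mean of 10 CPM or more, with 4 gene lists in colour. Points on the dashed line have an interaction of 0. Most non-ribosomal intron genes with the common site lie near that line below 0 on both axes, while amino acid genes lie near 0 at low density and below 0 at high density.

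The counts moved with the libraries and the scale. Without wildtype low-density replicate 1 the interaction had 445 higher and 328 lower calls, and without both deep high-density libraries 421 and 297, an alternative chosen after the data had been seen. An offset per library for coding length and GC content gave 969 and 960. On log2(TPM + 1) limma called 551 higher and 269 lower, a share of higher calls of 67.2% in place of 55.1%. At high density it called 1989 higher and 409 lower, and the median sequence moved by 0.171 there and by 0.144 at low density on the log2 scale. With scaling factors taken outside the ribosomal proteins the interaction had 600 higher and 510 lower calls. The low-density counts rest on single libraries. Wildtype low-density replicates 1, 2 and 3 left out gave 5, 6 and 83 higher and 24, 20 and 114 lower calls, and humanized ones 7, 3 and 3 higher and 29, 15 and 15 lower. Wildtype high-density replicates 1 and 2 left out gave 9 and 69 higher and 36 and 102 lower, and humanized replicates 1, 2 and 3 gave 10, 9 and 29 higher and 47, 37 and 79 lower.

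Genes of arginine synthesis were among those with the lowest interactions. The transcripts of ARG1 and ARG4 were higher in wildtype cells at high than at low density, and the change with density was smaller in humanized cells. ARG1 (chrXV:219211-220473, plus strand), argininosuccinate synthetase, had 45.7, 45.2 and 41.6 CPM in wildtype and 40.2, 45.1 and 41.7 in humanized cells at low density. High-density libraries had 424, 248 and 536 in wildtype and 67.7, 86.1 and 70.4 in humanized cells. At high density the lowest wildtype library was well above the highest humanized one. The interaction of ARG1 was −2.37 ± 0.30, adjusted p = 0.000312, made of −0.06 at low and −2.43 at high density. From low to high density it changed by +3.19 in wildtype and +0.82 in humanized cells on the log2 scale.

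ARG4, argininosuccinate lyase, had 56.7 to 63.9 CPM at low density, and at high density 526, 368 and 623 in wildtype and 122, 133 and 117 in humanized cells (−2.01 ± 0.21, adjusted p = 9.52e-05). In ARG1 and ARG4 wildtype replicate 2 was the lowest wildtype library at high density and still above all 3 humanized ones. ARG3, ornithine carbamoyltransferase, had 28.1, 17.7 and 33.7 CPM in wildtype and 7.87, 9.93 and 7.2 in humanized cells at high density (−1.96 ± 0.35, adjusted p = 0.00246), against 2.25 to 4.31 at low density. ARG7, a mitochondrial acetyltransferase of ornithine synthesis, had 328, 229 and 378 against 74.1, 79.5 and 70.9 at high density (−1.94 ± 0.19, adjusted p = 6.9e-05). Humanized libraries at high density had lower ARG7 values than those of either strain at low density, which had 83.3 to 94 CPM. The change of ARG7 with density in humanized cells was not called (−0.20, adjusted p = 0.234).

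Of 8 arginine genes in the amino acid list 6 were called lower and none higher, and their median interaction was −1.54. ORT1, the mitochondrial ornithine carrier, had 59.5, 56.6 and 62.6 CPM in wildtype and 23.6, 23.9 and 25.7 in humanized cells at high density (−1.07 ± 0.11, adjusted p = 0.000125). ARG56, the reference's symbol for the gene of the kinase and reductase steps of ornithine synthesis, had −1.14 (adjusted p = 0.00735). CPA1, of carbamoyl phosphate synthesis, and ARG8, an aminotransferase, were the 2 not called, with −0.20 (0.336) and +0.16 (0.418). ARG56, CPA1 and ARG8 were named after their values were seen. So was CAR1, the arginase that breaks arginine down, which also had a low interaction (−1.19 ± 0.09, adjusted p = 1.73e-05), with 190.5 ± 7.34 CPM in wildtype and 72.9 ± 4.6 in humanized cells at high density (mean ± SD).

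Promoter windows of 2 arginine genes with low interactions are shown because they hold the letters bound by Gcn4. Each window runs from 350 to 101 bases before the start codon, on the gene's strand, in R64 with the SGD annotation: ARG1 at chrXV:218861-219110 (plus strand) and ARG4 at chrVIII:141503-141752 (minus strand). Capitals mark TGACTC on either strand, which appears on the opposite strand as GAGTCA.
ARG1: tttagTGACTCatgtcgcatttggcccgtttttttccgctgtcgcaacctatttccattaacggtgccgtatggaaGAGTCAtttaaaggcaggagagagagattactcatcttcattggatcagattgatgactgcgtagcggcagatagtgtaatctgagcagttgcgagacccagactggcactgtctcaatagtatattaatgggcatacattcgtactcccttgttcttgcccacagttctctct
ARG4: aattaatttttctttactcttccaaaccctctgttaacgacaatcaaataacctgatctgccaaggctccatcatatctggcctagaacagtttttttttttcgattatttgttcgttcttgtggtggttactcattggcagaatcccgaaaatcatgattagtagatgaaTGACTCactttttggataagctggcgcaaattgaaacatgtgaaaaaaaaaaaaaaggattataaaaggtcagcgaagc
TGACTC on either strand was in 413 of the 5700 windows of tested genes (7.25%) and in 35 of the 51 windows of the amino acid list (68.6%). It was in 89 of 491 windows (18.1%) of genes with a lower interaction and in 32 of 600 (5.33%) with a higher one. In the purine and leucine lists described below it was in 11 of 16 (68.8%) and 6 of 8 windows (75%). A match of letters is no evidence of binding in these cells, and the amino acid list holds known Gcn4 targets.

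**Figure D2:**
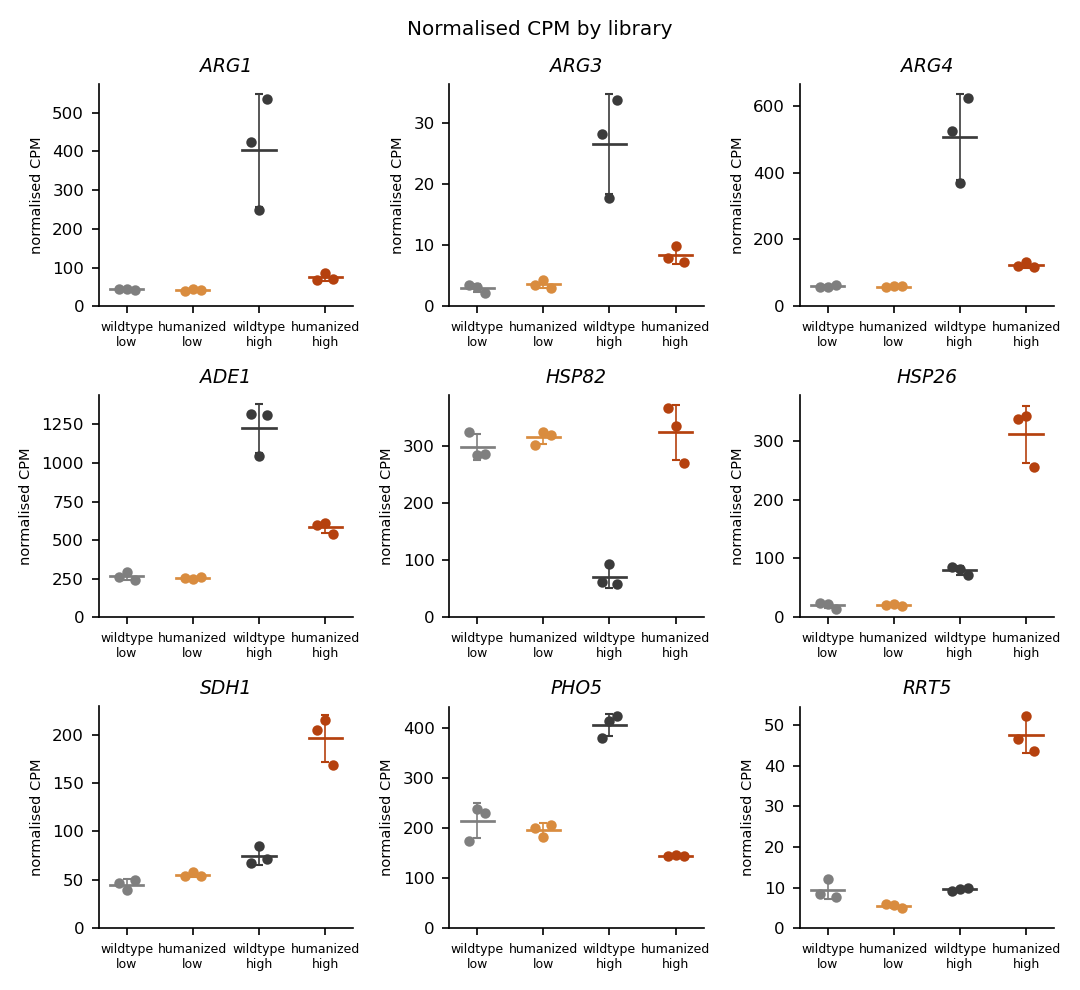
Normalised CPM of 9 genes in each of the 12 libraries (points), with the mean (line) and SD (error bars) of the 3 libraries of a group; each vertical axis starts at 0. ARG1, ARG3, ARG4 and ADE1 are highest in wildtype at high density, and HSP26, SDH1 and RRT5 in humanized cells at high density.

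Lower interactions extended over most of the list of Gcn4 and amino acid synthesis. Of its 51 genes 42 had a lower interaction and none a higher one, 35 of them with every library left out in turn. The median interaction was −0.76, beside 0.00 over all tested sequences. At low density the median of these genes was −0.06 and none was called, and at high density it was −0.84 and 48 were called lower. All 51 had every humanized library below every wildtype library at high density, against 20.9% of all tested sequences. Between the densities wildtype cells had a median change of +0.41 and humanized cells one of −0.10. The mean level of the list, as log2(CPM + 0.5), was 7.92 to 7.99 in wildtype and 7.89 to 7.91 in humanized cells at low density. At high density wildtype stood at 8.45 to 8.87, with replicate 2 lowest, and humanized libraries at 7.74 to 7.87.

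The separate list of sulfate assimilation and methionine had 3 higher and 3 lower of 26 (median −0.005). The called genes of the Gcn4 list covered many pathways. HIS4, a histidine synthesis enzyme of several steps, had 254 ± 19.9 and 244 ± 5.46 CPM in wildtype and humanized cells at low density, and 1499 ± 356 and 498 ± 34.4 at high density (−1.53 ± 0.19, adjusted p = 0.000349). ASN1, asparagine synthetase, had 1880.0 ± 496 in wildtype and 716 ± 27.9 in humanized cells at high density (−1.43 ± 0.21, adjusted p = 0.000768). LYS20, the homocitrate synthase that begins lysine synthesis, was not higher at high density in wildtype: it had 310.0 ± 23.5 CPM at low and 288 ± 33.5 at high density, and 303 ± 16.2 and 129 ± 11.4 in humanized cells (−1.13 ± 0.13, adjusted p = 0.000217). These 3 genes were chosen after their values were seen. The transcript of GCN4 itself had 994 to 1587 CPM over the 12 libraries and was not called in the interaction (−0.01 ± 0.13, adjusted p = 0.977). GCN4 is regulated mainly in translation, which these counts do not measure.

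Leucine genes under the regulator Leu3 also had lower interactions. Of the 8 tested 6 had a lower interaction and none a higher one (median −0.63). BAT1, the mitochondrial branched-chain aminotransferase, had 931 to 1015 CPM at low density, then 1013, 929.8 and 1180.0 in wildtype and 494, 500.0 and 449.5 in humanized cells at high density (−1.04 ± 0.12, adjusted p = 0.000173). LEU4, the isopropylmalate synthase that begins leucine synthesis, had 878, 720.2 and 1058 against 466, 456 and 426 at high density (−1.10 ± 0.16, adjusted p = 0.000682). OAC1, a mitochondrial carrier of oxaloacetate and isopropylmalate, had 182, 160.0 and 188 against 105, 92.2 and 108 (−0.71 ± 0.10, adjusted p = 0.000785). BAT1 and OAC1 differed little between the densities in wildtype (log2 change +0.07 and −0.03) and fell in humanized cells (−0.97 and −0.74), while LEU4 rose in wildtype (+1.41).

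Purine synthesis genes were higher at high density in both strains, and less so in humanized cells. Their median change from low to high density was +0.99 in wildtype and +0.53 in humanized cells. ADE1, an enzyme of the middle of the pathway, had 261, 294 and 244 CPM in wildtype and 257, 247 and 259 in humanized cells at low density. Libraries at high density had 1315, 1043 and 1313 against 598, 608 and 541 (−1.01 ± 0.14, adjusted p = 0.000492). ADE13, adenylosuccinate lyase, had 2135, 1506 and 2239 in wildtype and 1096, 1001 and 1051 in humanized cells at high density (−0.87 ± 0.16, adjusted p = 0.00327). ADE57, the reference's symbol for a gene of 2 early steps, had 2428, 1757 and 2725 against 1373, 1305 and 1158 (−0.82 ± 0.18, adjusted p = 0.00816). In all 3 the strains overlapped at low density and did not at high density. Of the 16 purine genes 10 had a lower interaction and none a higher one (median −0.56). That count was 6 without humanized low-density replicate 3 or wildtype high-density replicate 1, and 4 without both deep high-density libraries or in limma on TPM, while the median stayed between −0.67 and −0.47 over the alternatives.

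Chaperone genes moved the opposite way. In wildtype cells they were lower at high than at low density (median −0.78), and in humanized cells less so (−0.19). HSP82 (chrXVI:96496-98625, minus strand), the inducible Hsp90, had 325, 284 and 286 CPM in wildtype and 302, 323 and 319 in humanized cells at low density. High-density libraries had 61.2, 92.5 and 58.9 in wildtype and 366, 334 and 270.1 in humanized cells. Wildtype at high density was below the 9 other libraries, which overlapped each other. The interaction of HSP82 was +2.11 ± 0.22, adjusted p = 0.000109, with changes from low to high density of −2.08 in wildtype and +0.04 in humanized cells. HSP26, a small heat shock protein, differed in form, since it rose in both strains. It had 14.6 to 23.6 CPM at low density, and 85.9, 82.4 and 71.2 in wildtype and 336, 342 and 255 in humanized cells at high density (+1.87 ± 0.23, adjusted p = 0.000287). HSP78, a mitochondrial disaggregase, had 43.8, 51.7 and 38.3 against 127, 119 and 103 at high density, against 53.6 to 68.8 at low density (+1.29 ± 0.17, adjusted p = 0.00036).

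Of the 26 chaperone genes 14 had a higher and 1 a lower interaction, 11 and 1 of them with every library left out in turn. The median was +0.50, and at low density none was called and the median was 0.00. Further members named after their values were seen were HSP104, the cytosolic disaggregase (+1.14 ± 0.19, adjusted p = 0.00178), the Hsp70 genes SSA1 (+1.29 ± 0.17, adjusted p = 0.000492) and SSA4 (+1.15 ± 0.15, adjusted p = 0.000478), and AHA1, which activates Hsp90 (+0.77 ± 0.15, adjusted p = 0.0036). SSA2, also named after its value was seen, had +0.73 ± 0.18, adjusted p = 0.0151. Of its 31-base words 63.9% also occur in other sequences, mainly SSA1, so the division of reads between SSA1 and SSA2 is uncertain. HSC82, the constitutive Hsp90 that shares part of its sequence with HSP82, had +0.48 ± 0.12, adjusted p = 0.0167, and this call was lost without humanized high-density replicate 1 (adjusted p = 0.0525). The lower call was HSF1, the regulator of these genes, with 101.1 ± 2.98 and 113 ± 2.26 CPM in wildtype and humanized cells at low density and 103 ± 1.8 and 93.2 ± 1.92 at high density (−0.32 ± 0.06, adjusted p = 0.00535). The transcripts of KAR2 and ERO1, a chaperone and an oxidase of the endoplasmic reticulum from another list, also had higher interactions (+0.77 ± 0.10, adjusted p = 0.000325, and +0.91 ± 0.11, adjusted p = 0.000194). In that list of the unfolded protein response 4 of 24 were higher and none lower (16.7%, median +0.07), against 17.9% called over all sequences.

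Heat shock elements, the letters bound by Hsf1, are shown in windows of the same kind for HSP78 (chrIV:974344-974593, minus strand) and HSP104 (chrXII:88273-88522, plus strand). Capitals mark matches to GAANNTTCNNGAA, 2 in each window, on opposite strands and overlapping.
HSP78: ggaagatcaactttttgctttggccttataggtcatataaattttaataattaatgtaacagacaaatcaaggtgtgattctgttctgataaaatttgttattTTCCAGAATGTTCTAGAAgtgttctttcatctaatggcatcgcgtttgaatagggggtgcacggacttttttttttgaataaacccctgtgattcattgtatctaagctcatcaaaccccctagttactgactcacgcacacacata
HSP104: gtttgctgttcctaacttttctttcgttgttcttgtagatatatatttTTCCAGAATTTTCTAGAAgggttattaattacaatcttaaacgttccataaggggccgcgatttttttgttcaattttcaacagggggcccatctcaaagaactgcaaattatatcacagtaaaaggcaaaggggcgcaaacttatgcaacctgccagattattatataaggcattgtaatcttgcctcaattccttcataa
This pattern was in 52 of 5700 windows (0.912%) and in 13 of 26 windows of the chaperone list (50%). It was in 14 of 600 windows (2.33%) of genes with a higher interaction and in 2 of 491 (0.407%) with a lower one. The windows of HSP82, HSP26 and SSA4 held no match to these letters.

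**Figure D3:**
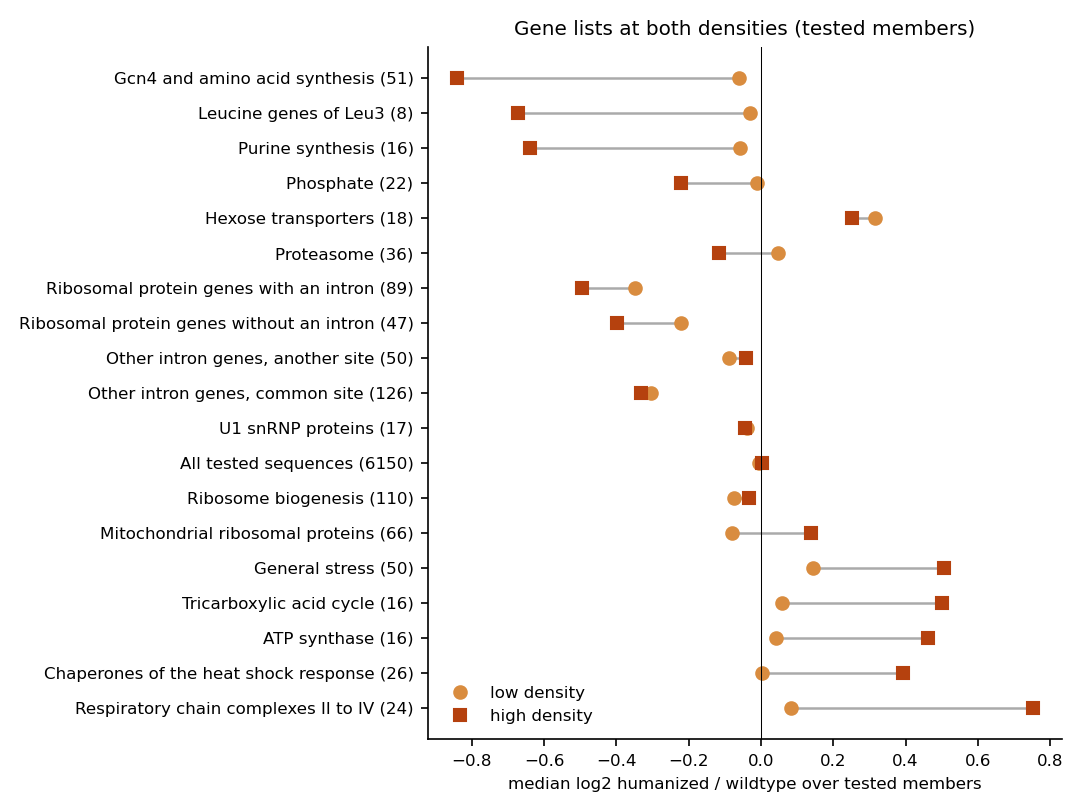
Median log2 difference of humanized against wildtype cells at low density (circles) and high density (squares) for 18 gene lists and all tested sequences, with the number of tested members in brackets. The amino acid, leucine and purine lists move down from low to high density, the respiratory, chaperone, ATP synthase, cycle and stress lists move up, and the list of other intron genes with the common site, GTATGT, stays in place.

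Respiratory genes were higher at high density in both strains, and more so in humanized cells. The median change of the 24 nuclear genes for respiratory complexes II to IV was +0.45 in wildtype and +1.03 in humanized cells. SDH1, the flavoprotein of succinate dehydrogenase, had 46.5, 39.2 and 49.9 CPM in wildtype and 53.6, 57.7 and 54.2 in humanized cells at low density. Its high-density values were 67.9, 85 and 71.7 against 204, 215 and 169. All humanized libraries were above all wildtype libraries at both densities, with a difference of +0.29 (adjusted p = 0.212) at low and +1.39 (3.6e-06) at high density, and an interaction of +1.10 ± 0.16, adjusted p = 0.000682. SDH2, the iron-sulphur subunit beside it, had 36.4, 34.6 and 39.6 against 48, 49.3 and 46.4 at low density. At high density SDH2 had 51.6, 56.1 and 46.8 in wildtype and 122, 134 and 106 in humanized cells (+0.86 ± 0.13, adjusted p = 0.00084). COR1, a core subunit of complex III, showed the same order, with 206, 216 and 203 in wildtype and 416, 442 and 336 in humanized cells at high density (+0.74 ± 0.12, adjusted p = 0.00154).

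Of these 24 genes 12 had a higher interaction and none a lower one (median +0.62). The count was 7 without humanized replicate 2 at either density and 20 in limma on TPM, and the median stayed between +0.47 and +0.73 over the alternatives. In the tricarboxylic acid cycle, which feeds this chain, 8 of 16 were higher and 1 lower (median +0.43), with SDH1, SDH2 and SDH3 in both lists. MDH1, mitochondrial malate dehydrogenase, had 156, 173 and 149.7 in wildtype and 312, 342 and 254 in humanized cells at high density, against 130.3 to 142 at low density (+0.90 ± 0.13, adjusted p = 0.000835). LSC2, a subunit of succinyl-CoA ligase, rose in both strains and had 208, 195 and 180.2 against 274, 294 and 277 at high density (+0.60 ± 0.09, adjusted p = 0.000768). The lower call of this list was CIT3, a citrate synthase isoform (−0.49 ± 0.14, adjusted p = 0.0309), named after its value was seen and not called in all 12 fits with a library left out. The ATP synthase list had 5 of 16 higher and none lower (median +0.44), with 2 higher without humanized low-density replicate 2 and 11 after the length and GC offset. Of 110 ribosome biogenesis genes 20 were higher and 7 lower (24.5%, median +0.06). Their higher calls were 13 in limma on TPM. Their lower calls were 16 without wildtype high-density replicate 2, 11 without humanized high-density replicate 3, and 3 or 4 without wildtype low-density replicate 1, humanized low-density replicate 2 or 3, or wildtype high-density replicate 1. Of 66 mitochondrial ribosomal proteins 17 were higher and none lower (median +0.26). Without wildtype high-density replicate 2 that count was 28, and without both deep libraries 8.

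**Figure D4:**
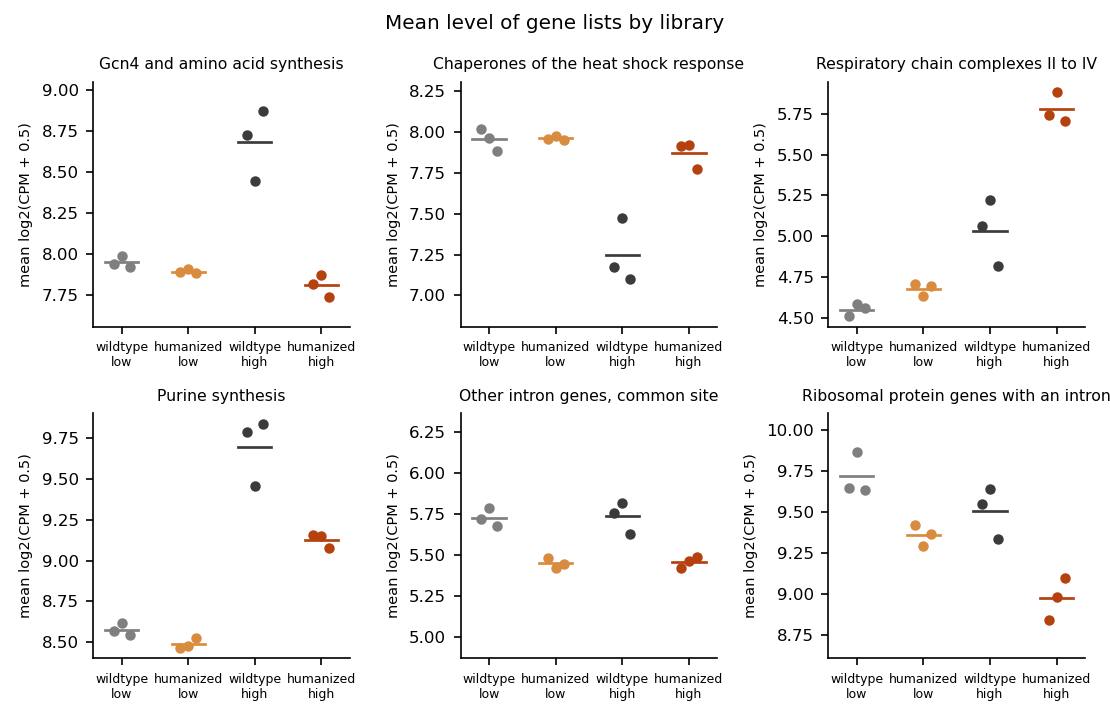
Mean level of 6 gene lists in each of the 12 libraries, as the mean over members of log2(CPM + 0.5), with the group mean as a line; each panel spans 1.5 log2 units and does not start at 0. Amino acid and purine genes are highest in wildtype at high density, chaperones are lowest there, and the intron genes with the common site GTATGT are lower in humanized cells at both densities.

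General stress genes, targets of Msn2 and Msn4, were also among the higher calls. Of 50 tested 14 had a higher and 1 a lower interaction (median +0.39), and 28 were higher without wildtype high-density replicate 2. HSP12, a small membrane-associated stress protein, had 8.2 to 12 CPM in wildtype and 11.7 to 14.6 in humanized cells at low density. At high density HSP12 had 17.6, 14.9 and 11.8 against 64.5, 74.2 and 55.9 (+1.72 ± 0.25, adjusted p = 0.000709). TSL1, a subunit of trehalose synthase, had higher values in humanized libraries at both densities. At low density TSL1 was not called (+0.59, adjusted p = 0.194). It had 73.3, 63.8 and 74.1 against 100.8, 104 and 114 at low density and 52.8, 98.9 and 53.3 against 219, 197 and 143 at high density. Its interaction missed the threshold (+0.86 ± 0.31, adjusted p = 0.076) and passed it without wildtype high-density replicate 2 (+1.22, 0.00101) or humanized high-density replicate 3 (adjusted p = 0.0354), in DESeq2 (+0.85, 0.0286) and with all 7 groups in the fit (+0.85, 0.0319). The opposite pattern was found in HSP30, a stress protein of the plasma membrane. HSP30 had 169, 198 and 216 in wildtype and 306, 237 and 305 in humanized cells at low density, where humanized libraries were all higher. That low-density difference was not called (+0.54, adjusted p = 0.145), and 15.2% of all tested sequences had humanized libraries all higher there. At high density the humanized libraries of HSP30 were all lower, with 44.5, 64.9 and 37.6 against 18.8, 18.3 and 16.7 (−1.99 ± 0.25, adjusted p = 0.000291).

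Phosphate genes had lower interactions, led by the secreted and vacuolar phosphatases. PHO5 (chrII:429548-430951, minus strand), the main secreted acid phosphatase, had 174, 238 and 231 CPM in wildtype and 201, 182 and 207 in humanized cells at low density. At high density it had 381, 414 and 424 in wildtype and 144, 147 and 144 in humanized cells (−1.36 ± 0.14, adjusted p = 0.000112). It therefore rose with density in wildtype (+0.92) and fell in humanized cells (−0.44). Of the 31-base words of PHO5 19.8% also occur in other sequences, mainly PHO3. PHO12, another acid phosphatase, had 238, 351 and 298 against 86.2, 69.7 and 76.4 at high density (−1.58 ± 0.17, adjusted p = 0.000144), but 91.6% of its 31-base words also occur in other sequences, mainly its copy PHO11, so the 2 cannot be told apart. PHO8, the vacuolar alkaline phosphatase, had 352 to 420.1 in the other 3 groups and 231, 232 and 222 in humanized cells at high density (−0.68 ± 0.10, adjusted p = 0.000682). Of 22 phosphate genes 10 were lower and 1 higher (median −0.34). The transporter genes differed: PHO89 had −1.26 ± 0.21, adjusted p = 0.00147 and PHO84, the main high-affinity transporter, −0.17 ± 0.13, adjusted p = 0.405, both named after their values were seen. CACGTG, the letters bound by Pho4, was in 220 of 5700 windows (3.86%) and in 15 of 22 of this list (68.2%). Among all called genes its share was near that of all windows, with 24 of 491 (4.89%) for a lower and 20 of 600 (3.33%) for a higher interaction.

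Of the 9 genes of polyamine, copper and metallothionein 4 had a higher interaction and none a lower one, with a median of +0.16 and 4 negative values. FRE7, a metal reductase, had 17.7, 21.3 and 20.2 CPM in wildtype and 68.7, 48.4 and 48.6 in humanized cells at high density, against 28 to 52.3 at low density (+1.62 ± 0.28, adjusted p = 0.00195). CTR3, a copper transporter, was lower in all humanized libraries at low density (11.2, 12.2 and 9.43 against 8.68, 8.78 and 7.84). That low-density difference was not called (adjusted p = 0.155). CTR3 was higher in all humanized libraries at high density (8.4, 8.82 and 7.95 against 13.2, 12.4 and 13.9, +1.02 ± 0.17, adjusted p = 0.00145). FRE1, the main reductase of the cell surface, had 98.4, 112 and 109 against 193, 141 and 149 (+0.79 ± 0.20, adjusted p = 0.0194), a call lost without wildtype high-density replicate 1 (0.0554). The fourth was the transporter CTR1 (+0.84 ± 0.24, adjusted p = 0.0305). Without wildtype high-density replicate 1, without both deep libraries or with all 7 groups in the fit there were 2 higher calls.

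The highest interactions among the named genes were those of RRT5, YOR338W and YGR035C, for which no role is given here. RRT5 had 8.48, 12.2 and 7.81 CPM in wildtype and 5.92, 5.83 and 4.91 in humanized cells at low density. The high-density libraries had 9.28, 9.59 and 9.87 against 46.5, 52.2 and 43.7 (+3.08 ± 0.21, adjusted p = 8.27e-06). The strains did not overlap at either density and their order turned round, with low-density and high-density differences of −0.77 (0.0352) and +2.31 (1.02e-06). YOR338W had 73 to 81.8 at low density, and 37.6, 24.1 and 34.3 in wildtype and 182, 207 and 191 in humanized cells at high density (+2.68 ± 0.18, adjusted p = 7.07e-06). It fell with density in wildtype (−1.31) and rose in humanized cells (+1.37). YGR035C had 7.39, 11 and 6.22 against 28.7, 37.2 and 61 at high density (+2.60 ± 0.36, adjusted p = 0.000581), with more spread among humanized libraries.

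ALD6, the cytosolic acetaldehyde dehydrogenase that makes acetate, had 437 to 495 CPM at low density. At high density it had 235, 571 and 245 in wildtype and 1142, 1094 and 1087 in humanized cells (+1.72 ± 0.37, adjusted p = 0.00682). Wildtype replicate 2 stood apart from its group there. PRM7, named for its response to pheromone, fell with density in both strains. It had 448 to 728 at low density, and 99.2, 90.6 and 116 in wildtype and 363, 424 and 352 in humanized cells at high density (+1.59 ± 0.19, adjusted p = 0.000277). SPS1, a kinase of spore wall formation, was lower in every humanized library at low density (14.8, 13.4 and 12.7 against 8.75, 8.81 and 9.79). That low-density difference was not called (−0.58, adjusted p = 0.112). SPS1 was higher in humanized cells at high density (7.03, 9.32 and 7.1 against 12, 16.7 and 17.4, +1.56 ± 0.22, adjusted p = 0.000683). The smallest p of all sequences was that of RAD16, a nucleotide excision repair protein, with 84.8 ± 3.72 and 80.5 ± 1.91 CPM at low and 60.4 ± 3.86 and 159 ± 1.73 at high density in wildtype and humanized cells (+1.47 ± 0.08, adjusted p = 2.29e-06). RAD16 was named after its value was seen.

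Outside arginine synthesis, 4 further genes were among the lowest. ARO5 (YGL117W) had 9.64 to 13.9 CPM at low density, and 63.6, 52.6 and 66.9 in wildtype and 12.5, 14.9 and 15.2 in humanized cells at high density (−1.98 ± 0.19, adjusted p = 6.41e-05). TDA6 fell strongly with density in both strains. It had 207, 193 and 216 against 249, 246 and 248 at low density, with all humanized libraries higher. That low-density difference was not called (+0.27, adjusted p = 0.121). At high density TDA6 had 41.1, 39.4 and 36.3 against 13.8, 15.2 and 12, with all humanized libraries lower (−1.78 ± 0.11, adjusted p = 6.84e-06). RGI1, a protein of energy metabolism under respiratory growth, had 30.3, 76.6 and 20.4 in wildtype and 13.4, 12.5 and 15.3 in humanized cells at high density (−2.01 ± 0.50, adjusted p = 0.0159), and its wildtype libraries were far apart. YLR297W had 18.1 to 24.4 over the other 3 groups and 7.37, 6.89 and 7.22 in humanized cells at high density (−1.66 ± 0.16, adjusted p = 5.22e-05). Its annotated end lies 287 bases from YHC1. On the other side of YHC1, ECM38, 652 bases away, was not called (+0.16 ± 0.09, adjusted p = 0.253). EXG1, 3538 bases away on that side, was called higher (+0.37 ± 0.10, adjusted p = 0.0274). A link of these values to YHC1 was not tested.

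The U1 snRNP acts on the 5′ splice site of introns. Of the 126 tested genes outside the ribosome whose intron begins with the common GTATGT, 25 were called lower at low density and 69 at high density, with medians of −0.31 and −0.33. Over all tested sequences 0.797% and 17.8% were called lower. In limma on log2(TPM + 1) the 126 genes had 16 and 34 lower calls. Their medians there were −0.13 and −0.09, beside +0.144 and +0.171 over all tested sequences. The low-density count was 50 in DESeq2, 47 with all 7 groups and 53 after the length and GC offset. It was 15, 14 and 38 without wildtype low-density replicates 1, 2 and 3, 10 and 9 without humanized low-density replicates 2 and 3, and 40 without wildtype high-density replicate 2. At low density 91 of the 126 had every humanized library below every wildtype library, and at high density 74. Over all tested sequences 16.5% and 20.9% did. The median interaction of the 126 was 0.00, with 63 values on each side of 0. Of them 6 were called higher and 6 lower, together 9.52%, against 17.9% of all tested sequences. Without wildtype high-density replicate 2 there were 16 higher and 6 lower, and in the 11 other fits with 1 library left out 2 to 8 higher and 3 to 10 lower. Across these 126 genes the low-density and high-density differences, which share no library, had a Spearman correlation of 0.60 and a Pearson correlation of 0.24, and 102 were negative at both. Over all 6150 sequences the correlations were 0.31 and 0.17, with 1912 negative at both, and over the 51 amino acid genes −0.06 and −0.17. These are descriptions across genes, which are not independent replicates.

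Of the genes that led the low-density comparison in earlier results of these data, 5 have an intron. Their 5′ splice sites are shown because U1 pairs with those bases. The windows hold the last bases of the exon and the first of the intron: RPS22B at chrXII:856569-856588 (plus strand), RPS14B at chrX:73791-73810 (plus strand), NCB2 at chrIV:1266848-1266867 (minus strand), BIG1 at chrVIII:315845-315864 (minus strand) and MRPL44 at chrXIII:721332-721351 (minus strand). Capitals mark the first 6 bases of the intron, which is GTATGT in all but RPS14B.
RPS22B: agcatgGTATGTtccaacta
RPS14B: ctaacgGTACGTgaaagggg
NCB2: ccaaggGTATGTtagttata
BIG1: caaactGTATGTagaacaag
MRPL44: aggaagGTATGTattttttt
RPS22B, a ribosomal protein of the small subunit, had 245, 282 and 234 CPM in wildtype and 114, 106 and 104 in humanized cells at low density. The high-density values were 213, 224 and 186 against 90.9, 106 and 109. The strains were well apart at both densities, by −1.24 and −1.02, and the interaction was +0.21 ± 0.13, adjusted p = 0.312. The RPS22B interaction passed the threshold on log2(TPM + 1) (+0.42, 0.024) and after the length and GC offset (+0.24, 0.0217). NCB2, a subunit of a negative regulator of transcription, had 40.9, 42.3 and 37.2 against 22.5, 22.9 and 21.9 at low density. At high density NCB2 had 39.8, 35.4 and 32.3 against 17, 18 and 17.2 (−0.21 ± 0.11, adjusted p = 0.253).

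BIG1, a protein of the endoplasmic reticulum needed for cell wall glucan, and MRPL44, of the mitochondrial ribosome, showed the same order of groups. Their humanized libraries were below the wildtype ones at both densities. Their interactions were +0.23 ± 0.15, adjusted p = 0.309 and +0.31 ± 0.18, adjusted p = 0.277. RPS14B, with the less common site GTACGT, differed: it had 181, 209 and 173 against 102, 92 and 101.2 at low density. At high density RPS14B had 93, 116 and 85 against 70.8, 81.5 and 76.2. Its interaction passed the threshold (+0.57 ± 0.16, adjusted p = 0.026) and lost it without wildtype high-density replicate 1 or humanized replicate 2 at either density (largest adjusted p = 0.0711). Of the 31-base words of RPS14B 20.4% also occur in other sequences, mainly RPS14A. Of the 49 sequences called lower at low density 36 have an intron, against 269 of the 5906 matched to the annotation. At high density 44 of the 49 had a negative value too, with 39 of the 49 called lower there and 4 called higher. Of the 17 called higher at low density 13 were positive at high density, with 8 called higher and 2 called lower. Over all tested sequences 20.2% were called higher and 17.8% lower at high density.

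**Figure D5:**
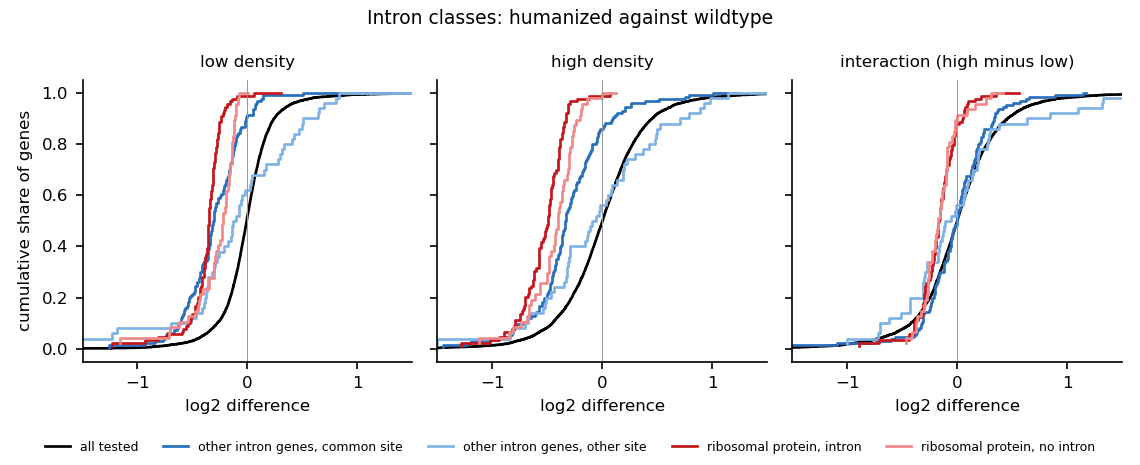
Cumulative share of genes (vertical) by log2 difference of humanized against wildtype cells (horizontal) at low density, at high density and for the interaction, for all tested sequences and 4 classes of ribosomal protein and other genes. Values beyond 1.5 in size lie outside the panels. At both densities the intron classes with the common site (GTATGT) or in ribosomal proteins lie left of all sequences, and for the interaction the common-site class lies on top of them.

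Some intron genes had a called interaction, and those given here were named after their values were seen. DBP2, an RNA helicase with an unusually long intron, had 1631 ± 71 and 1275 ± 38.4 CPM in wildtype and humanized cells at low density, and 1380.0 ± 176 and 506 ± 19.5 at high density (−1.09 ± 0.12, adjusted p = 0.000166). PHO85, a cyclin-dependent kinase, had −0.57 ± 0.13, adjusted p = 0.012. YSC84, an actin-binding protein, went the opposite way (+0.62 ± 0.13, adjusted p = 0.0067). Of the 50 genes with another 5′ splice site 1 was higher and 5 lower (median −0.04), with 3 lower without wildtype low-density replicate 1, humanized low-density replicate 1 or 2, wildtype high-density replicate 1 or humanized high-density replicate 2. Of 68 splicing factors outside the U1 snRNP 7 were higher and 2 lower (median −0.02), and the share called, 13.2%, was below the 17.9% of all tested sequences. The 2 lower calls became 5, 7 and 6 without wildtype replicate 2 at low density, wildtype replicate 2 at high density and humanized replicate 3 at high density. They became 0 or 1 without any other library except wildtype replicate 3 at either density.

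Ribosomal protein transcripts were lower in humanized cells at both densities, whether or not the gene has an intron. The 89 with an intron had medians of −0.35 at low and −0.49 at high density, with 10 and 78 called lower, and 86 were negative at both. Over all tested sequences 0.797% and 17.8% were called lower. In limma on log2(TPM + 1) all tested sequences had medians of +0.144 and +0.171. The 89 genes had −0.16 and −0.18 there, with 8 and 42 called lower. The low-density count was 48 in DESeq2, 22 with all 7 groups and 31 after the length and GC offset. It was 4, 2 and 23 without wildtype low-density replicates 1, 2 and 3, and 3, 2 and 2 without humanized ones. Without wildtype high-density replicates 1 and 2 it was 6 and 26, and without humanized high-density replicate 3 it was 20. The 47 without an intron had −0.22 and −0.40, with 2 and 34 called lower, and −0.04 and −0.14 with 3 and 14 in limma. The median interaction was −0.16 in both classes, and in limma on log2(TPM + 1) it was −0.03 with and −0.09 without an intron. A difference between the classes was not tested. Only 2 genes with an intron were called lower and 1 higher, together 3.37%, against 17.9% of all tested sequences. The lower count was 1 without wildtype low-density replicate 1 or 3, humanized low-density replicate 1 or 3, or humanized high-density replicate 1 or 2. It was 6 without wildtype replicate 2 at low or 3 at high density, 17 without humanized high-density replicate 3, and 21 after the length and GC offset. Among genes without an intron RPL9B was called higher, with 401 ± 33.1 against 244 ± 7.64 CPM at low and 392 ± 11.9 against 319 ± 22.5 at high density (+0.42 ± 0.10, adjusted p = 0.013). RPL22B, with an intron, was higher in humanized cells at low and lower at high density (58.7 ± 3.44 against 72.8 ± 2.61, and 96.7 ± 7.15 against 73.1 ± 5.96, −0.71 ± 0.11, adjusted p = 0.00082). Both were named after their values were seen.

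Haploid and pheromone response genes had 8 of 22 higher and 1 lower (median +0.26), 6 and 0 of them with every library left out in turn. They included KAR4, a regulator of mating and meiosis (+0.98 ± 0.08, adjusted p = 2.6e-05), FUS1, a cell fusion protein (+0.68 ± 0.13, adjusted p = 0.00433), and FAR1, which arrests the cell cycle on pheromone (+0.62 ± 0.10, adjusted p = 0.00105), named after their values were seen. Of 32 genes of vacuolar proteases and autophagy 8 were higher and 1 lower (median +0.15). Of 24 thiamine and pyridoxine genes 4 were higher and 1 lower, a share of 20.8%, near that of all tested sequences. Hexose transporters had 2 higher and 3 lower of 18, and none of the 2 higher calls held in the 12 fits with a library left out. HXT7, a high-affinity transporter, rose with density in both strains. It had 42.1, 35.4 and 40.5 against 76.9, 69 and 91 CPM in wildtype and humanized cells at low density, and 417, 789.6 and 354 against 1064, 1336 and 1285 at high density. Humanized libraries were above wildtype ones at both densities, though the low-density difference was not called (+1.005, adjusted p = 0.0777). Such an order at low density was seen in 15.2% of all tested sequences. The interaction of HXT7 was +0.24 ± 0.34, adjusted p = 0.694. Without wildtype high-density replicate 2 it was +0.67 (adjusted p = 0.0184), without replicate 1 +0.09 (0.907) and without replicate 3 +0.02 (0.97). Of HXT7 95.7% of the 31-base words also occur in other sequences, mainly HXT6. Translation factors (34 tested), histones (11) and alpha-cell genes (5) had no call in either direction.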

How the data were processed

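Per the labels' protocols, libraries were made from poly-A RNA after hot phenol extraction and DNase treatment. Reads were trimmed with cutadapt and quantified with Salmon 1.9 on sacCer3, per the submitters' processing notes (strand setting and index: not given in the sources used here). Estimated counts and TPM were deposited by the authors for 6571 spliced coding sequences per library, without untranslated regions or introns. Salmon divides reads that match several sequences, so near-identical copies are uncertain, and unspliced RNA was not analysed here. Of the sequences 5906 matched the R64 annotation by systematic name, and 269 of those have an intron.

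Estimated counts were rounded to whole numbers and tested with edgeR 4.0.16 (R 4.3.3). The 12 libraries entered 1 fit with a mean for each of 4 groups, TMM scaling, the filterByExpr defaults, quasi-likelihood tests without a block and 8 residual degrees of freedom. A call is a Benjamini-Hochberg adjusted p below 0.05 over the 6150 tested sequences. SE means the standard error of a log2 difference. The scripts were tested on simulated data.

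The contrast, the 54 gene lists and the rule for naming genes were chosen with earlier results of these data known. Lists are described by counts and medians, with no test. The named genes are YHC1, LUC7 and the 10 highest and 10 lowest interactions with a mean of 10 CPM or more that were called with each of the 12 libraries left out. To these were added the 3 members of smallest p from each of the 8 lists with the largest share of calls, and 8 genes that led the low-density comparison earlier. Of these, 1 gene is not reported here. Promoter windows and splice sites were read from the R64 genome.

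Alternatives were DESeq2 size factors, TMM outside ribosomal proteins, a minimum mean of 10 CPM or no minimum, the test of DESeq2 1.42.0, limma 3.58.1 on log2(TPM + 1) and log2(TPM + 0.1), all 7 groups in 1 fit, the replicate number as a block, an offset fitted to GC content and coding length (spline with 4 degrees of freedom, 89.7% of sequences with a value), and each library left out. Leaving out both deep high-density libraries was added after the data had been seen.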

Additional observations from a re-analysis of the deposited data

Results flagged for a closer look

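Each call of the interaction is itself a tested difference between the strains' contrasts at 2 densities, so the counts of 605 higher and 493 lower sequences and the called named genes are listed here. The highest log2 interactions were RRT5 (+3.08), YOR338W (+2.68), YGR035C (+2.60), HSP82 (+2.11), HSP26 (+1.87), ALD6 (+1.72), HSP12 (+1.72), FRE7 (+1.62), PRM7 (+1.59) and SPS1 (+1.56). Low values were those of ARG1 (−2.37), ARG4 (−2.01), RGI1 (−2.01), HSP30 (−1.99), ARO5 (−1.98), ARG3 (−1.96), ARG7 (−1.94), TDA6 (−1.78) and YLR297W (−1.66).

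Among list members with lower values were ORT1 (−1.07), BAT1 (−1.04), LEU4 (−1.10) and OAC1 (−0.71) of amino acid synthesis, ADE1 (−1.01), ADE13 (−0.87) and ADE57 (−0.82) of purine synthesis, and PHO5 (−1.36), PHO12 (−1.58) and PHO8 (−0.68) of the phosphate list. Those with higher values were HSP78 (+1.29), SDH1 (+1.10), SDH2 (+0.85), COR1 (+0.74), LSC2 (+0.60), MDH1 (+0.90), CTR3 (+1.02) and FRE1 (+0.79). Of the genes that led the low-density comparison RPS14B (+0.57) and SDH2, given above, were called.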

How the results depend on the processing

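The directions of the genes named by the rule held under every alternative run, while GCN4, outside the rule and not called, ran from −0.14 to +0.08. Of the called ones FRE1 lost its call with all 7 groups in 1 fit (adjusted p = 0.105), without both deep high-density libraries (0.0567) and without wildtype high-density replicate 1, and RPS14B without both deep libraries (0.0918) and in the 3 fits named in the report. Counts moved more. The offset for length and GC content gave 969 higher and 960 lower interactions, limma 269 lower on log2(TPM + 1) and 266 on log2(TPM + 0.1), and leaving out both deep libraries 297 lower. At low density the counts were 93 higher and 171 lower with DESeq2, 33 and 30 with limma on log2(TPM + 1), 30 and 30 on log2(TPM + 0.1), 95 and 107 with all 7 groups, and 86 and 192 after the offset. At high density limma gave 1989 and 409 on log2(TPM + 1), and 1944 and 407 on log2(TPM + 0.1). The cause was not tested. With 1 library left out the interaction had 420 to 831 higher and 328 to 709 lower calls, low density 3 to 83 and 15 to 114, and high density 881 to 1288 and 835 to 1278.

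Replicate numbers recur in all groups. Deviations of libraries with the same number correlated between −0.519 and 0.674, and for no pair of groups were all 3 above 0.1, so the numbers were not taken as pairs. Wildtype at high and low density came closest, with 0.0762, 0.674 and 0.565 for replicates 1, 2 and 3. Unlike numbers of these 2 groups had −0.641 to 0.374, so a pairing of wildtype libraries is not excluded. With the replicate number as a block the interaction had 627 higher and 490 lower calls, low density 18 and 59, and high density 1280 and 1099. With 3 libraries a group and the larger spread at high density, a missed threshold does not show equal effects.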
